A study of Rattus norvegicus with 145 samples.

Results

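The Cyp2c subfamily of cytochrome P450 genes was followed in the liver of 145 Wistar rats given acetamide, a food contaminant that causes liver tumors in rats. Its 8 members in the count tables, out of 17337 genes listed by symbol, were taken by name: Cyp2c11, Cyp2c12, Cyp2c13, Cyp2c22, Cyp2c23, Cyp2c24, Cyp2c7 and Cyp2c6v1. The tables hold 0 other genes whose symbol starts with Cyp2c. Experiment A used Hsd:WI males of 9 to 10 weeks, gavaged daily for 7 days with water vehicle or with acetamide at 1 of 4 doses (in mg/kg/day, mkd: 30, 100, 300 and also 1000). Experiment B used Crl:WI males and females of 8 to 10 weeks, gavaged with water vehicle or 300, 500, 750, 1000 or 1500 mkd for 7 or 28 days. Livers were taken on day 8 or day 29 and RNA came from the left lobe. Each of the 29 groups had 5 rats, and each rat gave a library of its own. Replicate numbers follow the order of the samples in a group. In experiment A some of them differ from the label numbers at 100, 300 and 1000 mkd. The 5 control males of day 29 carry the exposure label of the other experiment, but their title, strain and age match experiment B, where they were used.

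Cytochrome P450 enzymes of the Cyp2c subfamily sit in the membrane of the endoplasmic reticulum and oxidize steroids, retinoids, fatty acids and drugs, with electrons passed on by the reductase Por. In rat liver several of them are textbook sex-dependent genes. Growth hormone is released in pulses in males and more evenly in females, and hepatocytes read this pattern through STAT5b, together with factors such as HNF4A and HNF6. Cyp2c11 and Cyp2c13 are known as male genes, Cyp2c12 as a female gene, and Cyp2c7 as a gene of higher expression in females. Cyp2c23 is known as an epoxygenase of arachidonic acid, and Cyp2c22 and Cyp2c7 as enzymes that act on retinoic acid.

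A start-site window of 300 bases (250 before and 50 after the annotated start) was found in the RefSeq sequences of GRCr8 for 7 of the 8 members, the exception being Cyp2c6v1. Those 7 lie on chromosome 1, with starts in the order Cyp2c11, Cyp2c24, Cyp2c7, Cyp2c12, Cyp2c13, Cyp2c22 and Cyp2c23. The windows are from GRCr8 and not from the Rn6 build of the counts. The 2 most similar pairs are shown because one joins genes of opposite sex bias and the other joins Cyp2c11 with Cyp2c24, which had few counts in any rat. Capitals mark TATAAA and CAAAGTNCA, a nuclear receptor half-site pattern of the HNF4 type, on either strand, and the motifs do not overlap. Cyp2c12 (chr1:248676985-248677284, minus strand) and Cyp2c13 (chr1:248787139-248787438, minus strand) align with 66.3% identical positions.
Cyp2c12: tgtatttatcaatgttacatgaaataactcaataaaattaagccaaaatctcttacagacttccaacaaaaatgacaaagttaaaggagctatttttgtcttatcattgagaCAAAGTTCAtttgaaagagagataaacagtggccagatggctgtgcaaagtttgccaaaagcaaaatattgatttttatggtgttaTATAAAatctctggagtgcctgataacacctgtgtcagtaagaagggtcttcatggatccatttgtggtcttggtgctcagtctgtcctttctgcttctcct
Cyp2c13: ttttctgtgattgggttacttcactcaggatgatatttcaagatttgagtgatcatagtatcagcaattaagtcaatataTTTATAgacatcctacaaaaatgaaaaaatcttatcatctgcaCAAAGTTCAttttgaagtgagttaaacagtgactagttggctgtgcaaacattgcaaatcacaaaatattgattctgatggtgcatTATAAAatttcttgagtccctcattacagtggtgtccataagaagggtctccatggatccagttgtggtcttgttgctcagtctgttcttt
Both windows hold CAAAGTTCA, 138 bases before the start in Cyp2c12 and 127 bases before it in Cyp2c13. CAAAGTNCA is present in 1.24% of 33469 windows of this length, and in none of the other 5 member windows. Cyp2c11 (chr1:246174966-246175265, plus strand) and Cyp2c24 (chr1:246286091-246286390, plus strand) align with 67.2% identical positions.
Cyp2c11: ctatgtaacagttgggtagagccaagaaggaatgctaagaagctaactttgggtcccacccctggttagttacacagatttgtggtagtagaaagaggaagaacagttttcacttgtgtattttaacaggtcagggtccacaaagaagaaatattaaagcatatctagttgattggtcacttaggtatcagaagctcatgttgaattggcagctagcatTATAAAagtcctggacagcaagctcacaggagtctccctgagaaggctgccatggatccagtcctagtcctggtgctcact
Cyp2c24: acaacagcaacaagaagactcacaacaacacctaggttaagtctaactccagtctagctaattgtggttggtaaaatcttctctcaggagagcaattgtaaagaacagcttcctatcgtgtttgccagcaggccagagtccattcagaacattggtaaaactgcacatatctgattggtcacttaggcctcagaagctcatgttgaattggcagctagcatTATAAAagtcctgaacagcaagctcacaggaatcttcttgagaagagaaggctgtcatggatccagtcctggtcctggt
They share an unbroken run of 45 bases that contains the TATAAA motif, and the longest run shared by any other pair of members was 16 bases. TATAAA is present in 14.2% of all windows and in 6 of the 7 member windows, all but that of Cyp2c23. Its place differed between them. The copy nearest the start lies 29 to 52 bases before it in Cyp2c11, Cyp2c24, Cyp2c7, Cyp2c13 and Cyp2c12. The only copy in Cyp2c22 lies 197 bases before the start. TTCNNNGAA, a pattern of the STAT5 type, is present in 8.87% of all windows and was found in 0 of the 7, which says only that these letters are not in these windows.

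The depth of a library, taken as its reads on genes, had a median of 28262376 and a range of 15449716 to 39986531. Levels are counts scaled to a common library size (CPM) scaled by TMM factors over all rats, and group values are the mean ± SD of 5 rats. In the fits of single data sets TMM factors in experiment A were 0.856 to 0.976 in controls and 1.056 to 1.905 at 1000 mkd. In day 29 females they were 0.735 to 1.017 in controls and 1.035 to 1.448 at 1500 mkd, highest in replicate 2. A larger factor gives a lower CPM, and the part of these factors in the results was not tested. CPM is not divided by transcript length, so levels are compared between rats and not between genes. Albumin (Alb) was at 45229 CPM or more in every rat. The Y-linked gene Eif2s3y matched the labelled sex in every rat, with at least 29.1 CPM in the 85 males and at most 0.784 CPM in the 60 females. Replicate 3 of the females at 300 mkd on day 29 stood apart, since it gave that highest female Eif2s3y value and also 34.7 CPM of Cyp2c11 and 46.4 CPM of Cyp2c13. These values were 1.83, 2.35 and 2.01% of the mean of the control males of day 29. Replicate 3 of the males at 1500 mkd on day 29 had 251 CPM of the proliferation gene Mki67, against at most 23.3 CPM in the other males of its data set, and Alb at 57081 CPM. Test results that rest on either rat are given with and without it. The correlations below include both rats and were not repeated without them.

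Sex set the levels of most members in control rats. In the fit of all experiment B rats, 7 of the 8 members differed between control females and males on day 8 and 6 of 8 on day 29, where 8% and 12.1% of all 11800 genes tested were called. A call needed a fold change of 1.5 or more in either direction together with an adjusted p no higher than 0.05. Overlap of groups is described for the members only. The share of all genes whose groups do not overlap was not counted in any comparison.

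Cyp2c11, the major testosterone hydroxylase of male liver, was at 1153, 1670, 1995, 1053 and 1589 CPM in the 5 control males of day 8. The 5 control females of that day had 2.30, 0.117, 0.157, 0.218 and 0.705 CPM. The groups did not overlap. Over the groups, 204038 counts in males stood against 98 in females, a ratio of 2146 per read (95% exact interval 1760 to 2643, for counting error only). The log2 difference, female minus male, was −11.04 ± 0.96 (SE) on day 8 with an adjusted p of 2.52e-17, and −12.12 ± 1.02 on day 29 with an adjusted p of 2.6e-18. Cyp2c13, the other male hydroxylase, was at 2846 ± 644 CPM in control males of day 8 and 2.22 ± 1.69 CPM in control females, a log2 difference of −10.32 ± 0.68 (adjusted p = 1.67e-24). On day 29 its difference was −10.31 ± 0.69 (adjusted p = 2.46e-24). In each control female of both days Cyp2c13 had at least 24 counts, so some reads were assigned to it throughout. Whether these reads came from expression in female liver, from related genes or from other libraries was not tested.

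Cyp2c24 had the fewest counts. The control males of day 8 had 1 to 18 counts each, 45 in all, and the control females 0 to 2 counts each, 3 in all. That is a ratio of 15.5 per read, with a 95% exact interval of 4.96 to 77.8. On day 29 the ratio was 10.1 (4.36 to 28.5), from 59 counts in males and 6 in females, and male replicate 3 held 36 of those 59. The difference was called on both days (adjusted p = 0.03 and 0.0282), but the call was lost on day 8 in 6 of the 10 fits that left out a single rat, and on day 29 without male replicate 3 (adjusted p = 0.219) and without female replicate 1, 3 or 4. The 6 rats of day 8 were male replicates 1 and 5 and female replicates 1 to 4. Of the 60 females of experiment B, 27 had 0 counts of Cyp2c24.

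Cyp2c12, a hydroxylase of sulfated steroids, showed the opposite sex difference. In control males of day 8 it was at 79.3, 169, 58.6, 70.3 and 260 CPM and in control females at 6320, 3272, 3816, 4547 and 5213 CPM. No male came near the lowest female. The log2 difference was 5.19 ± 0.48 on day 8 (adjusted p = 3.88e-16) and 7.29 ± 0.52 on day 29 (adjusted p = 2.9e-22). Female means were close on both days, 4634 ± 1195 and 4853 ± 1967 CPM, whereas the male mean was 127 ± 85.8 CPM on day 8 and 30.6 ± 22.9 CPM on day 29. Control males of day 29 were thus lower by 2.05 ± 0.42 on the log2 scale (adjusted p = 0.0192). The day 8 control males of experiment A, of another substrain, were at 28.0 ± 20.1 CPM. That is near the day 29 level and not the day 8 level of experiment B, so the difference between days holds within experiment B only. Cyp2c12 and LOC500035, named after its value was seen (log2 difference −4.39 ± 0.89), were the 2 genes called between day 8 and day 29 in control males, 0.0169% of those tested. This call was lost without any of 6 of the 10 rats, male replicates 2 and 5 of day 8 and 1, 2, 4 and 5 of day 29, with adjusted p from 0.0648 to 0.365. In control females 1.25% of genes were called between the days and 0 of the 8 members, among which Cyp2c11 had the largest difference (−1.08 ± 0.90, adjusted p = 0.543).

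Cyp2c7 was at 2143 ± 972 CPM in control males and 7654 ± 1887 CPM in control females of day 8, a log2 difference of 1.84 ± 0.34 (adjusted p = 2.35e-05), and the highest male (3639 CPM) stayed under the lowest female (5080 CPM). Its difference on day 29 was 2.00 ± 0.34 (adjusted p = 3.49e-06). Cyp2c6v1, a member best known for its induction by barbiturates, was higher in control females by 0.93 ± 0.22 on day 8 (adjusted p = 0.000885) and by 1.16 ± 0.22 on day 29 (adjusted p = 1.94e-05). On day 8 the groups overlapped, since male replicate 1 at 2212 CPM lay above the lowest female at 1857 CPM. Cyp2c22 was lower in females on day 8 (−0.86 ± 0.26, adjusted p = 0.0168), with 759 ± 265 CPM in males and 419 ± 153 CPM in females. That call was lost without male replicate 1 or 5 or female replicate 1 or 2, and on day 29 the difference was −0.23 ± 0.26 (adjusted p = 0.577). Cyp2c23 did not pass the test on either day (0.37 ± 0.18, adjusted p = 0.213, and 0.27 ± 0.18, adjusted p = 0.315). The sum of all members took 0.95 ± 0.11% of the reads on genes in control males of day 8 and 1.63 ± 0.274% in control females.

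**Figure D1:**
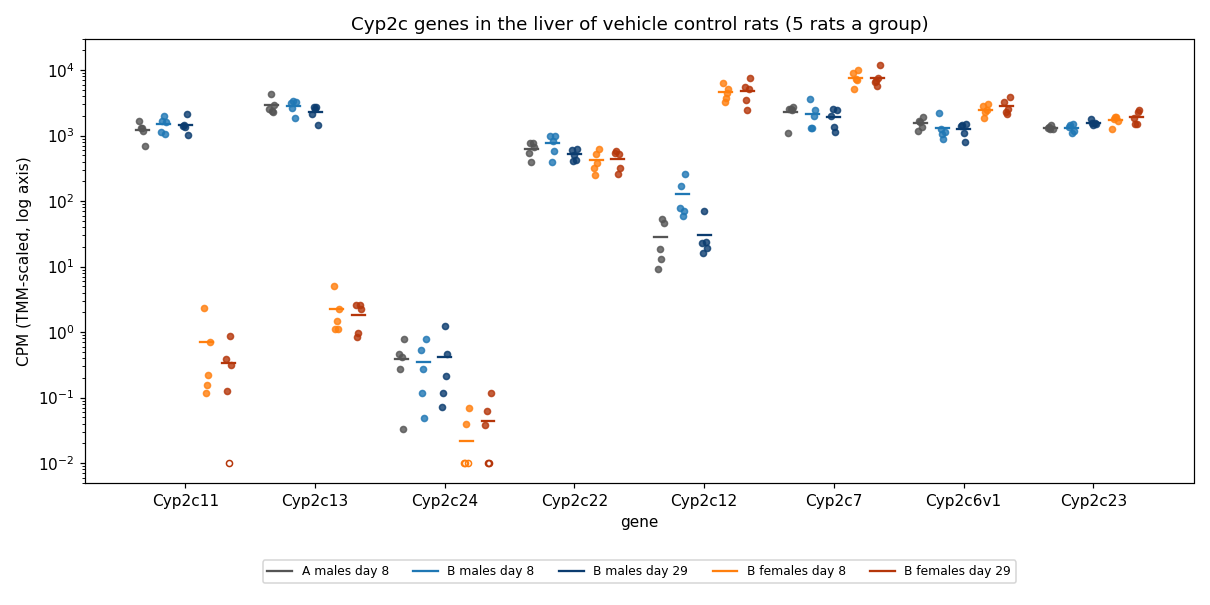
Levels of the 8 Cyp2c genes in control rats, in TMM-scaled CPM on a log axis, with a point for each rat, a line at each group mean (5 rats), and open points at 0.01 CPM for rats with 0 counts. The group means of Cyp2c11 are 1229 to 1492 CPM in males and 0.336 to 0.699 CPM in females, those of Cyp2c12 are 28.0 to 127 CPM in males and 4634 and 4853 CPM in females, and those of Cyp2c23 lie between 1326 and 1930 CPM.

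Experiment A had the most called members of the 5 data sets. At 1000 mkd 6 of the 8 were called, 5 lower and 1 higher, where 21.4% of all genes tested were called (1580 higher and 844 lower). Before adjustment, 4749 of the 11323 genes tested had p under 0.05 at this dose in edgeR. At 30, 100 and 300 mkd 0 members were called, and 0% of genes were called at each of these doses, although 324, 232 and 218 genes had an unadjusted p under 0.05 in the edgeR test.

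Cyp2c11 was at 1645, 1311, 1324, 1159 and 703 CPM in the controls and at 366, 82.4, 1140, 143 and 150 CPM at 1000 mkd. In 4 of the 5 treated males it lay below every control, and replicate 3 was within the control range. The log2 fold change was −1.71 ± 0.46 (adjusted p = 0.00746), and −2.73 without that rat (adjusted p = 1.91e-05). Cyp2c7 fell from 1096, 2538, 2529, 2455 and 2700 CPM to 696, 331, 621, 499 and 499 CPM. All 5 treated rats were below all controls, with a log2 fold change of −2.10 ± 0.33 (adjusted p = 0.000171). Cyp2c23 went from 1324, 1354, 1281, 1450 and 1241 CPM to 823, 306, 674, 364 and 529 CPM. These groups did not overlap either, and the fold change was −1.31 ± 0.21 (adjusted p = 0.000196). Cyp2c6v1 was lower in 5 of 5 rats, at 760 ± 182 CPM against 1552 ± 302 CPM (−1.04 ± 0.23, adjusted p = 0.00197).

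Cyp2c13 was at 2604, 613, 2594, 995 and 1056 CPM at 1000 mkd, with 3 rats below every control and 2 within the control range of 2289 to 4278 CPM. Its change of −0.88 ± 0.32 was called (adjusted p = 0.0382) but lost the call without control replicate 2 or 5 or treated replicate 2, 4 or 5, with adjusted p from 0.0566 to 0.12. Cyp2c24 was higher. Its counts per rat were 12, 7, 10, 1 and 22 in the controls and 46, 65, 65, 156 and 33 at 1000 mkd, so each treated rat exceeded every control. The log2 fold change was 2.36 ± 0.65 (adjusted p = 0.00889), at a mean of only 2.03 ± 1.47 CPM. Cyp2c12, the female gene, was at 9.09, 18.7, 13.0, 52.9 and 46.2 CPM in the controls and at 42.9, 47.9, 60.3, 87.6 and 96.9 CPM at 1000 mkd, a change of 1.25 ± 0.54 that missed the threshold (adjusted p = 0.0832), though it was called without control replicate 4 (1.60, adjusted p = 0.0431). Even the highest of these values was far below that of any female of experiment B, whose lowest was 1148 CPM. Cyp2c22 changed by 0.56 ± 0.27 (adjusted p = 0.11).

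The trend over all doses was called for all 8 members, where 45.9% of genes tested were called. With dose ranks in place of doses it was called for 4, and those of Cyp2c11, Cyp2c12, Cyp2c13 and Cyp2c22 missed the threshold (adjusted p = 0.063, 0.0521, 0.143 and 0.0812). The log2 slope per 1000 mkd was −2.24 ± 0.34 for Cyp2c7, −1.91 ± 0.42 for Cyp2c11, −1.44 ± 0.20 for Cyp2c23, −1.19 ± 0.21 for Cyp2c6v1 and −1.05 ± 0.29 for Cyp2c13. It was positive for Cyp2c24 (2.17 ± 0.46), Cyp2c12 (1.45 ± 0.40) and Cyp2c22 (0.56 ± 0.22). The slope of Cyp2c22 missed the threshold without any of 5 rats, control replicate 3, replicate 4 at 30 mkd and replicates 3, 4 and 5 at 1000 mkd (adjusted p from 0.0516 to 0.0977). The members took 0.853 ± 0.0847% of reads in controls and 0.571 ± 0.103% at 1000 mkd.

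Other cell types moved in the same samples. At 1000 mkd all 10 T and NK cell markers were higher, from a summed level of 28.8 to 40.6 CPM in controls to 58.9 to 109 CPM. Of the 10 macrophage markers 7 were higher (602 to 1745 CPM in controls, 1459 to 2663 CPM at 1000 mkd), and 8 of 8 proliferation genes were (16.0 to 74.6 CPM against 87.7 to 215 CPM). Of the 10 hepatocyte markers 4 were lower, and their sum went from 292880 to 385798 CPM down to 94961 to 285628 CPM. No defining marker of these lists was at 0. In bulk tissue fewer hepatocytes and less RNA per hepatocyte cannot be told apart, and the part of these shifts in the values of the Cyp2c genes was not tested.

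**Figure D2:**
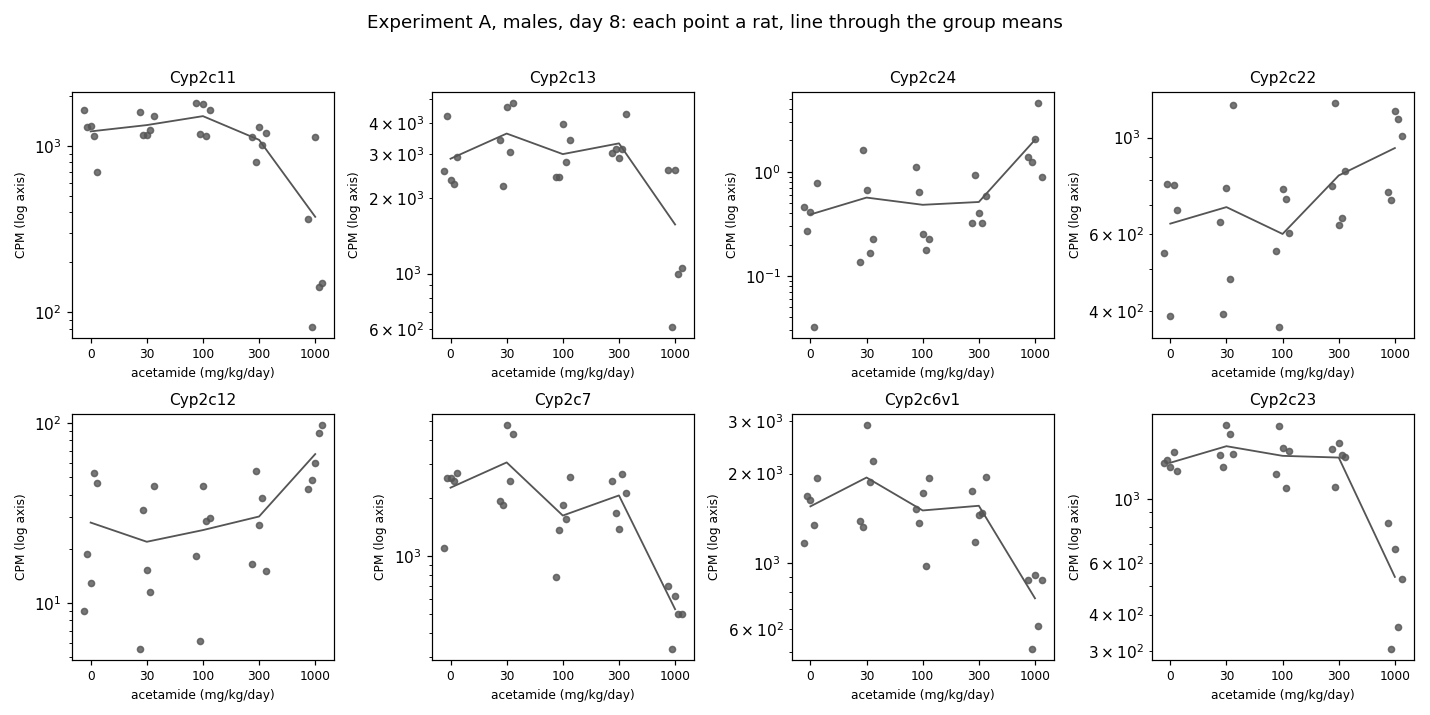
CPM (log axis) of each Cyp2c gene against acetamide dose (dose groups evenly spaced) in the males of experiment A, with a point for each rat and a line through the group means. The points at 30, 100 and 300 mkd overlap the controls, and at 1000 mkd all 5 rats lie below the controls for Cyp2c7, Cyp2c23 and Cyp2c6v1 and above them for Cyp2c24. The share of all genes that separate in this way was not counted.

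Males of experiment B on day 8 had few calls. The share of all genes called was 0% at 300, 500, 750 and 1000 mkd (before adjustment, 159, 375, 865 and 531 genes had p under 0.05 in edgeR) and 0.177% (20 genes) at 1500 mkd, and 0 members were called at any dose. Those 20 genes became 2 without replicate 3 at 1500 mkd and 86 without control replicate 5. Cyp2c11 came closest. It was at 653, 461, 626, 255 and 922 CPM at 1500 mkd against 1053 to 1995 CPM in the controls, so that all 5 treated males lay below all controls, with a log2 fold change of −1.36 ± 0.34 (adjusted p = 0.0714). It passed in DESeq2 (adjusted p = 0.012) and without replicate 5 at 1500 mkd (−1.59, adjusted p = 0.038). Its slope over all doses was called (−0.80 ± 0.22 per 1000 mkd, adjusted p = 0.0376), where 2.52% of genes had a called slope, but missed the threshold without any of 8 of the 30 rats (adjusted p up to 0.11). Those were control replicates 3 and 5, replicate 2 at 300 mkd, replicate 2 at 1000 mkd and replicates 1 to 4 at 1500 mkd. The other 7 slopes were not called, that of Cyp2c7 being −0.61 ± 0.22 (adjusted p = 0.132) and that of Cyp2c12 0.63 ± 0.29 (adjusted p = 0.249). Cyp2c23, which was lower in every treated male of experiment A at 1000 mkd, was at 1303 ± 194 CPM at that dose here, against 1326 ± 186 CPM in controls.

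On day 29 the males had called shares of 0% at 300 and 500 mkd (before adjustment, 638 and 1542 genes had p under 0.05 in edgeR), 0.78% at 750, 2.76% at 1000 and 4.91% at 1500 mkd. These shares depended on single rats, since the 88 genes at 750 mkd ranged from 0 to 665 (without replicate 4 at that dose), the 311 at 1000 mkd from 1 (without replicate 2) to 860 (without replicate 1) and the 554 at 1500 mkd from 226 (without control replicate 2) to 687 (without replicate 3). Among the members only Cyp2c12 at 1000 mkd was called. Its levels were 22.6, 16.2, 71.1, 23.9 and 19.0 CPM in controls and 131, 153, 123, 90.8 and 33.6 CPM at 1000 mkd, with 4 of 5 treated rats above every control. The log2 fold change was 1.82 ± 0.46 (adjusted p = 0.0335). Without any of 7 of the 10 rats the call was lost (adjusted p up to 0.0954), and it was kept only without control replicate 3, the highest control, and without replicates 1 and 4 at 1000 mkd. At 1500 mkd the values were 108, 49.8, 61.9, 122 and 21.2 CPM, which overlapped the controls (1.26 ± 0.46, adjusted p = 0.0814), though the change was called without control replicate 3 or treated replicate 5. The control group of this data set was also the one in which Cyp2c12 was lower than in the day 8 control males of experiment B, though not lower than in those of experiment A (28.0 ± 20.1 CPM).

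Slopes on day 29 were called in males for Cyp2c12 (0.82 ± 0.31, adjusted p = 0.0483), Cyp2c24 (1.81 ± 0.54, adjusted p = 0.0171) and Cyp2c13 (−0.41 ± 0.15, adjusted p = 0.0414), among 24.5% of all genes. That of Cyp2c24 rested on replicate 3 at 1500 mkd, the rat with high Mki67, whose 6.56 CPM compared with 0.0878 to 1.46 CPM in the other 4 of its group. Without it the slope was 1.07 (adjusted p = 0.185). Cyp2c12 kept the call in only 6 of 30 fits without a single rat, those that left out control replicate 3, replicate 1 at 300 mkd, replicate 5 at 1000 mkd or replicate 2, 3 or 5 at 1500 mkd. For Cyp2c13 it was lost without control replicate 2, replicate 4 at 1000 mkd, or replicate 1 or 2 at 1500 mkd (adjusted p up to 0.0732).

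Replicate 3 of the males at 1500 mkd on day 29 differed from its group in some members and not in others. It had 41.0 CPM of Cyp2c11, against 949 to 1709 CPM in the other 4 males of its group, 279 CPM of Cyp2c7, against 1395 to 1898 CPM, and 750 CPM of Cyp2c23, against 1442 to 1898 CPM. Its Cyp2c13 level of 1464 CPM and its Cyp2c22 level of 582 CPM were within the range of the others. The summed level of the 8 proliferation genes was 1095 CPM in this rat and 20.2 to 67.7 CPM in the other 4. Without it the change of Cyp2c11 at 1500 mkd went from −0.58 ± 0.46 (adjusted p = 0.424) to −0.33 (adjusted p = 0.463).

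**Figure D3:**
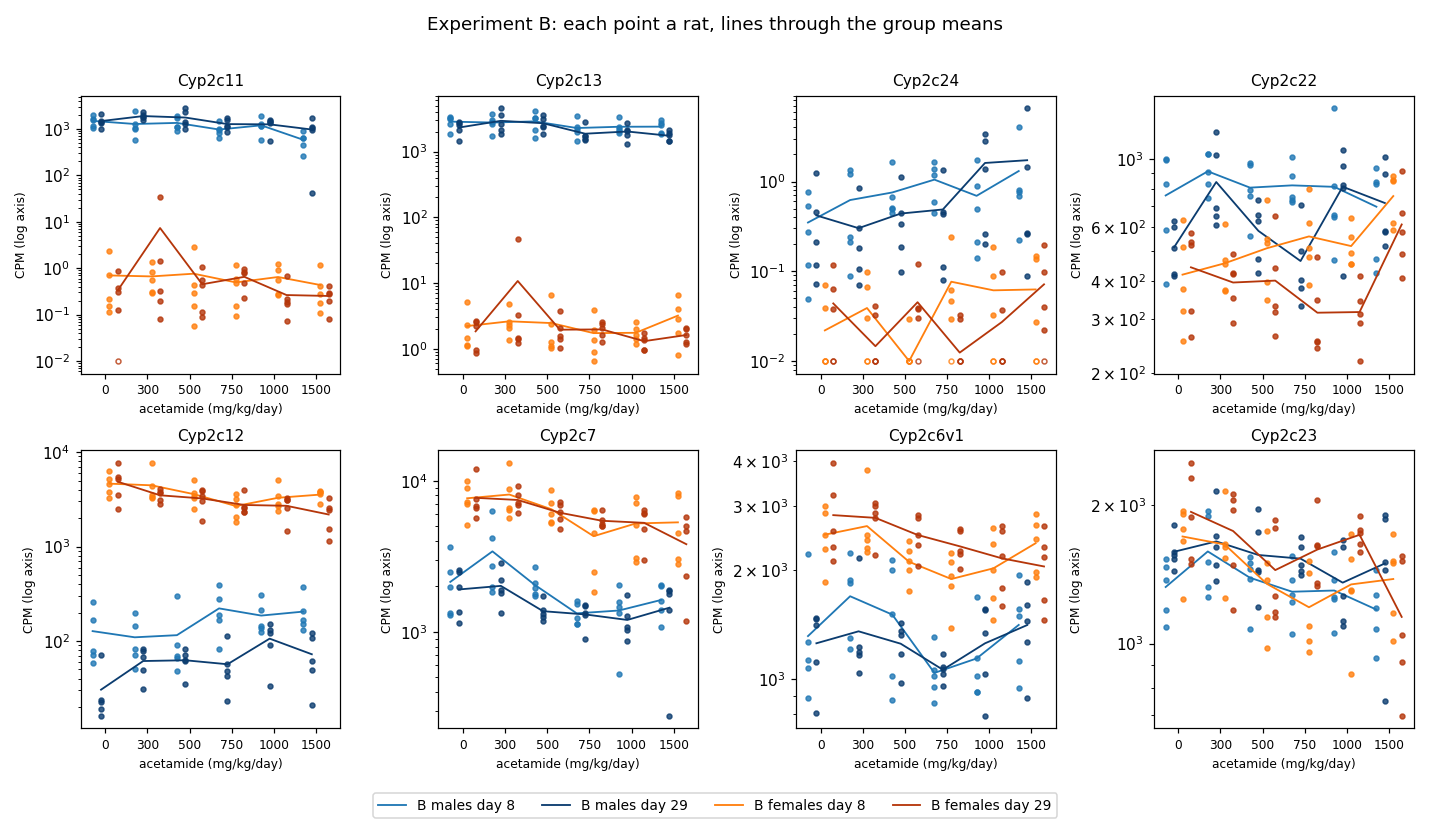
CPM (log axis) of each Cyp2c gene against acetamide dose (dose groups evenly spaced) in the 4 data sets of experiment B, with a point for each rat and lines through the group means; open points and means under 0.01 CPM are drawn at 0.01. The sexes stay separate at every dose for Cyp2c11, Cyp2c12 and Cyp2c13, and the 2 high female points of Cyp2c11 and Cyp2c13 at 300 mkd belong to the same rat.

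In females on day 8, 0.0087%, 0.0174%, 0.0174%, 1.37% and 0.705% of genes were called from 300 to 1500 mkd, and 0 members at any dose. Without a single rat the 158 genes at 1000 mkd ranged from 2 (without replicate 5) to 202, and the 81 at 1500 mkd from 1 to 426 (the latter without treated replicate 1). Cyp2c24 was too low for a test in either female data set. Cyp2c22 was at 318, 255, 517, 376 and 631 CPM in the controls and at 617, 852, 846, 876 and 588 CPM at 1500 mkd, with 3 of 5 rats above every control (0.85 ± 0.23, adjusted p = 0.0655). It was called in DESeq2 (adjusted p = 0.0184) and without treated replicate 1 or 5. Its slope of 0.52 ± 0.13 per 1000 mkd was the only called slope among the members (adjusted p = 0.0171, where 5.44% of genes were called), and it missed the threshold without replicate 3 at 1500 mkd (adjusted p = 0.0527).

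Females on day 29 had the most called members of experiment B at a single dose. The called share of genes was 0% at 300 mkd (before adjustment, 400 genes had p under 0.05 in edgeR), 0.0349% at 500, 0.183% at 750, 1.59% at 1000 and 13.1% at 1500 mkd, and 3 of the 7 members tested were called at 1500 mkd, all lower. The 1498 genes called there ranged from 802 (without replicate 2) to 1982 (without replicate 5), and the 182 at 1000 mkd from 13 to 424 (the latter without control replicate 3). Cyp2c12, the female gene, was at 5440, 3509, 2483, 5227 and 7603 CPM in controls and at 2466, 1148, 1520, 3261 and 2529 CPM at 1500 mkd. The groups overlapped, with 3 of 5 treated rats below every control, and the log2 fold change was −1.14 ± 0.28 (adjusted p = 0.00527). Cyp2c7 was at 6649, 6781, 5660, 7561 and 11893 CPM in controls and at 4653, 1173, 2354, 5053 and 5785 CPM at 1500 mkd. In 4 of 5 treated rats it was below every control, with a change of −1.01 ± 0.28 (adjusted p = 0.0129). Cyp2c23 was at 1885, 1491, 1529, 2280 and 2464 CPM in controls and at 1546, 698, 1044, 1513 and 912 CPM at 1500 mkd, 3 of 5 below every control (−0.75 ± 0.20, adjusted p = 0.0106). Replicate 2 at 1500 mkd was the lowest for all 3 genes. Without it the call of Cyp2c23 was lost (−0.62, adjusted p = 0.0511), as was that of Cyp2c7 without control replicate 5 (−0.79, adjusted p = 0.0615). In a fit of only the control and 1500 mkd groups none of the 3 passed (adjusted p = 0.0678, 0.127 and 0.0836 for Cyp2c12, Cyp2c7 and Cyp2c23).

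Cyp2c12 had means of 3490 ± 521, 3230 ± 858, 2756 ± 691 and 2702 ± 741 CPM from 300 to 1000 mkd against 4853 ± 1967 CPM in controls, and did not pass the test at any of these doses (adjusted p = 0.0906 at 1000 mkd, and 0.0432 there in DESeq2). Without control replicate 3, the lowest control, it was called at 750 mkd (adjusted p = 0.0489) and at 1000 mkd (adjusted p = 0.0343). Called slopes, among 27.3% of all genes, were those of Cyp2c12 (−0.71 ± 0.15, adjusted p = 0.00102), Cyp2c7 (−0.69 ± 0.16, adjusted p = 0.00183), Cyp2c6v1 (−0.34 ± 0.10, adjusted p = 0.00914), Cyp2c23 (−0.39 ± 0.13, adjusted p = 0.0202) and Cyp2c11 (−2.99 ± 0.96, adjusted p = 0.0199). The slope of Cyp2c11 rested on the female with male transcripts and was −0.46 without it (adjusted p = 0.491), whereas the first 3 kept their call without any single rat. That of Cyp2c23 was lost without control replicate 5 or replicate 2 or 3 at 1500 mkd. That of Cyp2c13, not called in the full data (−1.40 ± 0.55, adjusted p = 0.0565), was called without control replicate 2, 3 or 4 and was −0.24 (adjusted p = 0.41) without the female with male transcripts.

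At 1500 mkd in these females 4 of 10 macrophage markers were higher (summed 983 to 1203 CPM in controls and 1144 to 2128 CPM when treated), as were 3 of the 8 T and NK cell markers tested (27.0 to 55.8 CPM and 44.3 to 91.2 CPM) and 8 of 8 proliferation genes (13.1 to 20.9 CPM and 37.3 to 123 CPM). Of the hepatocyte markers 2 were lower and Apoa1 was higher, and their sum was 198522 to 392697 CPM in controls and 99302 to 197242 CPM when treated. The part of these shifts in the Cyp2c values was not tested.

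**Figure D4:**
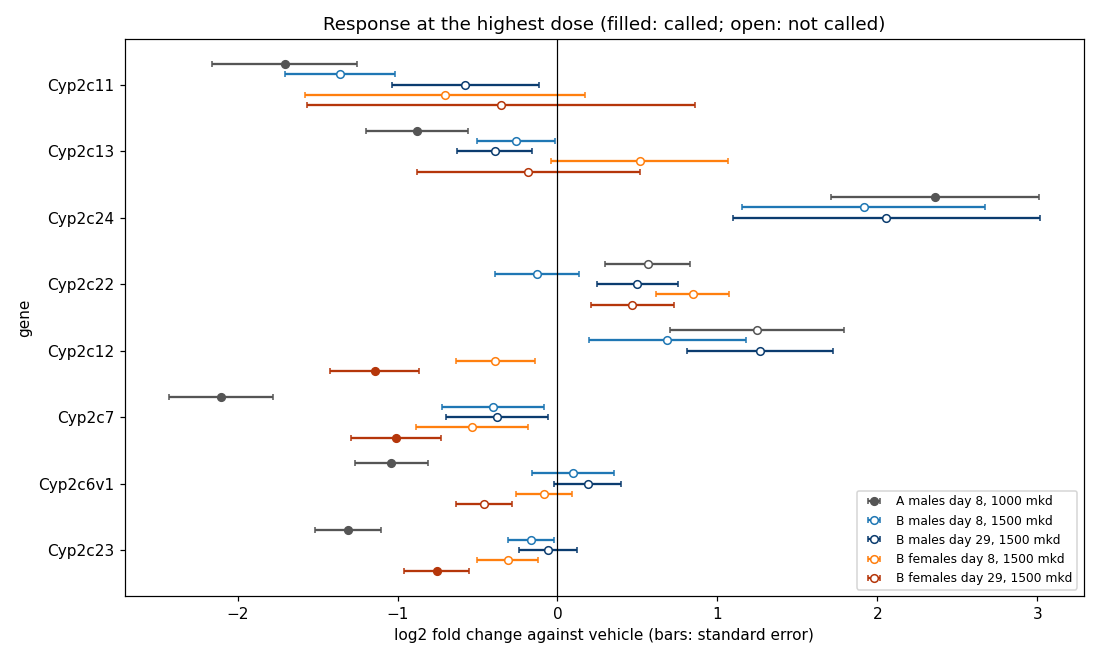
Log2 fold change at the highest dose against the controls of the same data set for each Cyp2c gene, with bars of 1 standard error; filled points were called and open points were not. Cyp2c7 and Cyp2c23 were called lower in the experiment A males and in the day 29 females, and Cyp2c12 lies right of 0 in the 3 male data sets and left of it in both female ones.

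The response of Cyp2c12 at 1500 mkd differed between the sexes on day 29. Its log2 fold change was 1.26 in males, which was not called, and −1.14 in females, and the difference of the responses was −2.37 ± 0.57 on the log2 scale (adjusted p = 0.0332). For 0.441% of genes this interaction was called, and Cyp2c12 was the only one of the 8 members. The 52 genes called ranged from 7 (without female treated replicate 3) to 866 (without male treated replicate 3). The call was lost in 9 of the 20 fits without a single rat (adjusted p up to 0.104), namely without male control replicates 1, 2 and 5, male treated replicates 1 and 4, female control replicates 1 and 5 and female treated replicates 2 and 3. Leaving out male replicate 3 at 1500 mkd gave −2.41 (adjusted p = 0.01), and Cyp2c23 was then called too (−0.82, adjusted p = 0.0333). On day 8 the interaction was called for 0% of genes (510 at an unadjusted p under 0.05 in edgeR), and that of Cyp2c12 was −1.08 ± 0.57 (adjusted p = 0.997).

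The same dose of 1000 mkd for the same 7 days gave different responses in the males of the 2 experiments, which differed in substrain, supplier and experiment together, so that these cannot be told apart. The change of Cyp2c23 was lower in experiment A by 1.29 ± 0.25 on the log2 scale (−1.29, adjusted p = 0.00323) and that of Cyp2c7 by 1.49 ± 0.47 (−1.49, adjusted p = 0.0413). This interaction was called for 6.9% of genes and for 2 of the 8 members. Of the 799 genes called, the number ranged from 201 to 1476 (without treated replicates 2 and 3 of experiment A), and a fit of only the 4 groups compared called 0 genes, with an adjusted p of 0.0631 for Cyp2c23 and 0.102 for Cyp2c7. In the fit of all day 8 males Cyp2c23 kept its call without any single rat, and Cyp2c7 did so in 6 of 20 such fits, those without control replicate 1 or 5 or treated replicate 2 of experiment B and without control replicate 1 or treated replicate 1 or 3 of experiment A (adjusted p up to 0.11 in the others). For Cyp2c11 the difference was −1.40 ± 0.58 (adjusted p = 0.119), and −2.43 (adjusted p = 0.00157) without replicate 3 of experiment A at 1000 mkd. Cyp2c6v1 (−0.84 ± 0.35, adjusted p = 0.129) was called without control replicate 1 of experiment B (−1.12, adjusted p = 0.039).

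Genes that serve the Cyp2c enzymes or share their regulation were listed by role. To set beside each list below, 21.4% of all genes tested were called in experiment A at 1000 mkd. At 1500 mkd the share was 4.91% in males and 13.1% in females on day 29, and 0.177% and 0.705% on day 8. Of the 23 listed regulators of Cyp2c genes (22 in the tables) 3 were lower in experiment A at 1000 mkd and 0 higher, with a list median of −0.34 against 0.00 over all genes. With 3 of 22 called, the list did not exceed the 21.4% of all genes. Those 3 were Ghr, the growth hormone receptor (−1.11 ± 0.21, adjusted p = 0.000758), Igf1, listed with them although it is a target of growth hormone (−1.0005 ± 0.23, adjusted p = 0.00276), and Nr1i2, the xenobiotic receptor PXR (−0.67 ± 0.20, adjusted p = 0.014). Ghr was also lower at 1500 mkd on day 29 in males (−0.63 ± 0.17, adjusted p = 0.0249) and in females (−1.01 ± 0.25, adjusted p = 0.00562). In those males Rxra, the shared partner of nuclear receptors, and Esr1 were lower as well (−1.41 ± 0.29 and −1.29 ± 0.40), with a list median of −0.37 against 0.07, and in those females Prlr, the prolactin receptor, was (−1.29 ± 0.39), with a median of −0.23 against 0.00. On day 8 of experiment B 0 regulators were called at 1500 mkd in either sex (medians −0.21 in males and −0.29 in females).

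Among 18 other sex-dependent liver genes (17 in the tables, 14 tested in males) 7 were lower at 1000 mkd in experiment A and 0 higher, with a median of −0.98, where 21.4% of all genes were called. The most changed were the sulfotransferase Sult2a1 (−1.68 ± 0.36), the organic anion transporter Slco1a1 (−1.47 ± 0.27) and the bile acid transporter Slc10a1 (−1.30 ± 0.29). In females on day 29 at 1500 mkd 4 of 12 tested were lower, led by Slc10a1 (−0.99 ± 0.26), Slco1a1 (−0.96 ± 0.29) and Sult2a1 (−0.88 ± 0.28), with a median of −0.61. In males on day 29 Slco1a1 alone was lower (−1.06 ± 0.22), and on day 8 at 1500 mkd 0 of these genes were called in either sex (medians −0.36 in males and −0.15 in females). Slco1a1 was therefore lower in the same 3 data sets as Ghr.

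Of 16 other liver P450 genes 7 were lower and 0 higher in experiment A at 1000 mkd (median −0.73, with 21.4% of all genes called), with Cyp4a8 (−2.53 ± 0.89), the male gene Cyp2a2 (−1.22 ± 0.32) and the male gene Cyp3a2 (−1.22 ± 0.35) the most changed. At 1500 mkd on day 29 Cyp2e1 was higher in males (0.73 ± 0.21) and Cyp2d2 lower in females (−0.78 ± 0.21), each the only one called of its list, and on day 8 0 were. In the list of 6 genes of electron transfer and heme metabolism Hmox1, the heme oxygenase, was higher (1.43 ± 0.24) and Cyb5a, which passes electrons to P450 enzymes, was lower (−0.61 ± 0.23) in experiment A, and Hmox1 was higher in females on day 29 (0.66 ± 0.20). Por itself was not called at the highest dose of any data set. For the handling of arachidonic acid epoxides and retinoids, 4 of 11 genes tested were higher and 1 lower in experiment A (median 0.24), with the retinoic acid hydroxylases Cyp26b1 (2.23 ± 0.51) and Cyp26a1 (1.57 ± 0.41) and the phospholipase Pla2g4a (1.38 ± 0.32) the most changed. Cyp26b1 was higher in females at 1500 mkd on day 8 (2.64 ± 0.48), and Rdh16, a retinol dehydrogenase, on day 29 (1.40 ± 0.33).

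Of the remaining lists, 4 of 8 acute phase genes, 2 of 4 neutrophil markers and 3 of 4 erythroid markers tested were lower in experiment A at 1000 mkd, 3 of 5 endothelial markers and 1 of 7 stellate markers were higher, and 0 of 4 cholangiocyte markers and 0 of 4 sex chromosome genes were called. In females on day 29 at 1500 mkd 2 acute phase and 2 erythroid genes were lower, and 2 endothelial, 1 stellate, 1 cholangiocyte and 1 neutrophil marker were higher. In males on day 29 the called genes of all cell type, acute phase and proliferation lists were the 8 proliferation genes and the hepatocyte marker Apob, which was lower. Without replicate 3 at 1500 mkd, left out here after the data were seen, 4 of the 8 proliferation genes were called, Cdk1, Ccnb1, Aurkb and Kif20a, and Mki67 was not (0.90 ± 0.37, adjusted p = 0.104, against 3.47 ± 0.73 with that rat). The list median went from 3.56 to 0.95. Apob, Ghr, Esr1, Rxra, Slco1a1 and Cyp2e1 kept their calls without that rat.

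Within a sex the members fell into sets that varied together from rat to rat. Correlations here are Spearman's rho of log2 CPM over the 60 rats of a sex in experiment B, centred on the mean of each data set. Both genes of a pair come from the same libraries, which include dosed rats and the rats that stood apart, so rho is given as a description. In males Cyp2c11 and Cyp2c13 had a rho of 0.73, and Cyp2c11 and Cyp2c12 one of −0.28. In females Cyp2c12, Cyp2c7 and Cyp2c6v1 had pairwise values of 0.785 (Cyp2c12 and Cyp2c7), 0.75 (Cyp2c12 and Cyp2c6v1) and 0.817 (Cyp2c7 and Cyp2c6v1). Cyp2c23 was between these (0.469 to 0.5 with each of the 3 in females), and Cyp2c22 stood off, with −0.281 to Cyp2c23 in females. Cyp2c24 in males ran against Cyp2c23 (−0.585) and Cyp2c11 (−0.465).

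**Figure D5:**
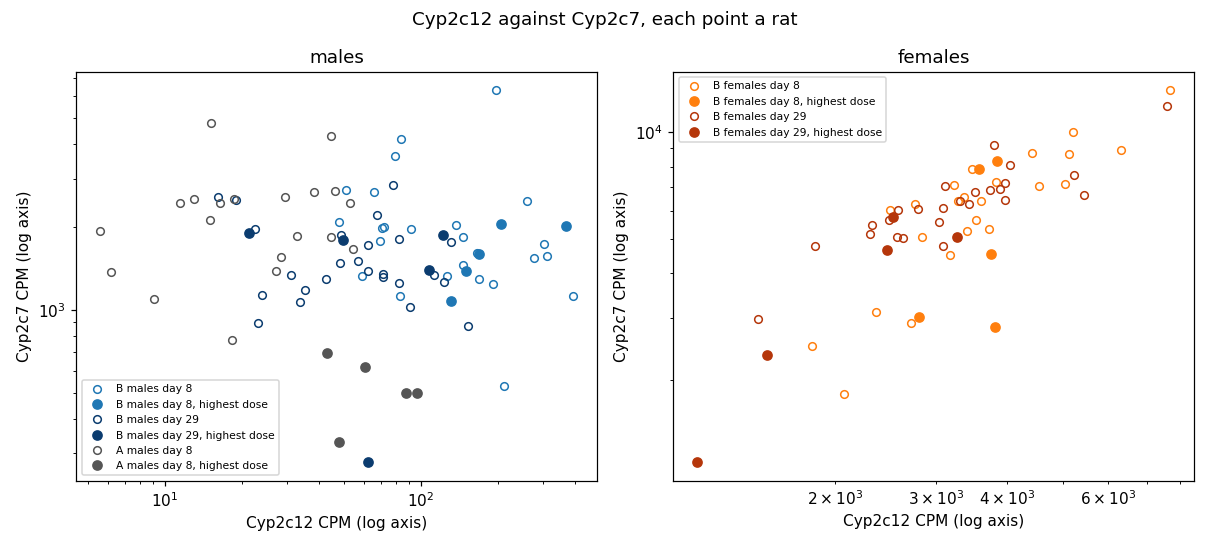
Cyp2c12 against Cyp2c7 in CPM (log axes), with a point for each rat, males left and females right, filled at the highest dose of each data set. In females the 2 genes vary together (rho 0.785 over the 60 rats, centred on data sets), and the 5 experiment A males at 1000 mkd lie at 331 to 696 CPM of Cyp2c7.

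The genes whose pattern was most like that of each member were taken among 10081 to 10128 genes with a mean of at least 1 CPM, over the 60 rats of the sex with the higher control level. The nearest genes depended on the measure, since by Pearson's r 0 of the 3 were shared for Cyp2c11, 1 of 3 for Cyp2c7 and Cyp2c6v1, and 2 of 3 for the others. For Cyp2c11 in males they included the organic anion transporter Ust5r (rho 0.88) and the bile acid transporter Slc10a1 (0.818). For Cyp2c13 they were RGD1564614 (0.805), F13b (0.789), a subunit of coagulation factor XIII, and Laptm4a (0.777). In females Cyp2c12 was closest to Idh1, the cytosolic isocitrate dehydrogenase (0.896), and RGD1564614 (0.888), so RGD1564614 was near both the male gene Cyp2c13 in males and the female gene Cyp2c12 in females. Cyp2c7 was closest to the aminopeptidase Enpep (0.888), and to Sdha (0.838) and Uqcrc2 (0.832), subunits of the respiratory chain. Cyp2c6v1 was closest to Cyp2c7 itself (0.817), then Nadk2 (0.792) and Hibadh (0.782).

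For Cyp2c23 in females the closest were the kynurenine enzyme Kmo (0.854), Cyp2d2 (0.799) and Slc17a2 (0.79). For the remaining members no gene came as near. Cyp2c24 in males had Neurl3 (0.657), Cd276 (0.637) and Prtfdc1 (0.634), and Cyp2c22 in males had Atp6v0e1 (0.577), Pdlim1 (0.568) and Lysmd2 (0.498). Cyp2c6v1 was the only one of the 8 members for which another Cyp2c gene was among the first 3.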

How the data were processed

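RNA-Seq counts per gene were analysed for 145 rat livers in 5 tables, 5 rats per group. Per the labels and the study's methods, TruSeq Stranded mRNA libraries were sequenced as 75 base single-end reads, and the authors trimmed reads with Trimmomatic, aligned them to UCSC Rn6 with Bowtie2 and deposited whole-read counts per gene symbol from HTSeq. HTSeq summary lines were left out of library sizes. In experiment B they took 35.5 to 67.1% of counts, and reads of low mapping quality, which near-identical paralogs such as the Cyp2c genes can share, took 13.6 to 46.7%.

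Counts were tested with edgeR 4.0.16 (R 4.3.3; TMM, filterByExpr, quasi-likelihood F-test, Benjamini-Hochberg adjustment over all genes), with calls defined by a fold change of 1.5 or more and an adjusted p no higher than 0.05, for slopes by the adjusted p alone. The SE of a log2 change or slope was its absolute value divided by the square root of the F statistic, and is approximate where a group has counts near the floor. Each table had a fit of its own. The sex and duration comparisons of control rats and the interaction of sex with dose used the 120 rats of experiment B. The comparison of experiments used all males of day 8. An interaction of duration with dose was not tested. Alternatives were DESeq2 1.42.0, its size factors, no filter, fewer groups in the fit, dose ranks, a replicate block and leaving out each rat. The fits were tested on simulated data. All 8 members were named, and of each other list up to 3 called genes with the largest change at the highest dose, with further names given for counts of 5 or fewer. Of the 3 genes most like each member, some are not reported here. Members and lists were chosen with earlier results of these data known. Counts of called genes over all genes changed with single rats in many comparisons, and the widest ranges are given beside them. Intervals on counts cover counting error only.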

Additional observations from a re-analysis of the deposited data

Results flagged for a closer look

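In 23 of the 220 groups and Cyp2c genes examined (10.5%), 1 of the 5 rats lay apart by Dixon's criterion (a gap over 0.71 of the group's range). For normally distributed values chance gives about 1 in 20. The criterion was applied to CPM that was not log-transformed, so the 10.5% cannot be read against that rate. Cyp2c11 was high in replicate 3 of the experiment A males at 1000 mkd (1140 CPM, others 82.4 to 366) and low in replicate 2 of the day 29 males at 1000 mkd (539.5 CPM, others 1331 to 1524). At the low levels of females it was high in replicate 1 of the day 8 controls (2.30 CPM), in replicate 3 at 500 mkd (2.88 CPM) and at 1500 mkd (1.197 CPM) of day 8, and in replicate 2 at 1000 mkd of day 29 (0.674 CPM). Replicate 3 of the day 29 females at 300 mkd was high in Cyp2c11 (34.7 CPM, others 0.0817 to 1.42) and Cyp2c13 (46.4 CPM, others 1.23 to 3.27), and its Eif2s3y level of 0.784 CPM was above that of every other female, at most 0.128 CPM.

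Cyp2c12 was high in replicate 3 of the day 29 control males (71.1 CPM, others 16.2 to 23.9), in replicate 3 of the day 8 males at 500 mkd (302 CPM), in replicate 4 of the day 8 females at 300 mkd (7683 CPM) and in replicate 2 of the day 29 females at 750 mkd (3965 CPM), and low in replicate 2 of the day 8 females at 1500 mkd (2803 CPM). Cyp2c13 was high in replicate 3 of the day 8 females at 500 mkd (6.58 CPM), the same rat that was high in Cyp2c11, in replicate 5 of experiment A at 300 mkd (4357 CPM) and in replicate 3 of the day 29 males at 750 mkd (2791 CPM). Cyp2c24 was high in 3 male groups, in replicate 3 at 500 mkd (1.65 CPM) and replicate 4 at 1500 mkd (4.06 CPM) of day 8 and in replicate 3 at 1500 mkd of day 29 (6.56 CPM). Cyp2c7 was low in replicate 1 of the experiment A controls (1096 CPM, others 2455 to 2700). Cyp2c6v1 was high in replicate 1 of the day 8 control males (2212 CPM), replicate 4 of the day 8 females at 300 mkd (3776 CPM), the rat that was also high in Cyp2c12, and replicate 3 of the day 29 males at 300 mkd (2161 CPM).

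Responses that differed by a test of the difference were those of Cyp2c12 between the sexes on day 29 (−2.37, adjusted p = 0.0332), and of Cyp2c23 (−1.29, adjusted p = 0.00323) and Cyp2c7 (−1.49, adjusted p = 0.0413) between the experiments at 1000 mkd, all from edgeR.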

How the results depend on the processing

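Of 252 recomputed counts of called Cyp2c genes, 228 stayed within 1.5 times the count reported, and of 381 recomputed values for single genes 332 kept their direction and side of the threshold, 36 lost a call and 13 gained one. A count of 0 that stayed at 0 is among the 228. Most of the 36 comparisons called 0 Cyp2c genes in the main fit, so the 228 says little about how stable the calls were. No called value changed its sign. With dose ranks the slope was called for 4 Cyp2c genes in experiment A (8 with dose) and 0 in the day 8 males (1 with dose). DESeq2 called 1 Cyp2c gene in the day 8 males at 1500 mkd, 1 in the day 8 females at 1500 mkd and 1 in the day 29 females at 1000 mkd, where edgeR called 0. With only the groups compared in the fit, and so fewer rats to estimate the spread, 0 were called in the day 29 females at 1500 mkd (3 otherwise), in the difference between sexes on day 29 (1 otherwise), in control males between days (1 otherwise) and in the difference between experiments (2 otherwise). In those fits Cyp2c11 and Cyp2c13 at 1000 mkd in experiment A had adjusted p of 0.0693 and 0.127. DESeq2's size factors in edgeR took the slope of Cyp2c12 in the day 29 males past the threshold (adjusted p = 0.0575). DESeq2 gave no adjusted p for the slopes of Cyp2c11 and Cyp2c13 in the day 29 females.

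Over fits without a single rat, the number of Cyp2c genes called went down to 0 and up to 1 for the 1500 mkd contrasts of the day 8 males, the day 29 males and the day 8 females, and for the 750 and 1000 mkd contrasts of the day 29 females. It fell to 0 for the slopes of both day 8 data sets, for the day 29 males at 1000 mkd and for the control males between days, to 1 for the slopes of the day 29 males and the difference between experiments, and ranged from 0 to 2 for the difference between sexes on day 29. Counts over all genes moved too: the slopes in experiment A gave 2769 genes with ranks against 5195, DESeq2 gave 178 against 20 in the day 8 males and 341 against 81 in the day 8 females at 1500 mkd, 641 against 311 in the day 29 males and 457 against 182 in the day 29 females at 1000 mkd, and only the groups compared gave 488 against 1498 in the day 29 females at 1500 mkd, 210 against 554 in the day 29 males, 0 against 52 between sexes, 0 against 147 in control females between days and 0 against 799 between experiments. The cause of these shifts was not tested.

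On average the replicate numbers did not pair the rats, since same-numbered rats of different dose groups had mean correlations of −0.014 to 0.038 in the 5 data sets. Single same-numbered pairs ranged from −0.516 to 0.452, and a mean near 0 cannot exclude that some rats were paired. With the replicate number as a block 34 of 36 counts of Cyp2c genes were within 1.5 times those reported. Counts of 0 with and without the block are among the 34. The block left 0 called slopes in the day 8 males (1 without it) and 1 in the day 29 males (3 without it), and the slope of Cyp2c11 in the day 29 females was then −1.49 (adjusted p = 0.17). Cyp2c24 had 0 to 8 counts per female, at which small differences were not detectable.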
